A study of Mus musculus with 8 samples.

Results

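The E2F transcription factors, their dimerisation partner Tfdp1 and the retinoblastoma family of pocket proteins were followed in LLC1 cells after X-irradiation. The family was taken as 10 genes, E2f1, E2f2, E2f3, E2f4, E2f7, E2f8, Rb1, Rbl1, Rbl2 and Tfdp1. All probes carrying 1 of these gene symbols on the array were read, 18 of the 41174 probes. Of these, 15 passed the filter on dim probes, and every gene kept at least 1 probe, so all 10 were among the 13411 genes tested. The probe with the highest mean intensity stood for a gene in the tests, and all other probes are described beside it.

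LLC1 is the Lewis lung carcinoma line, from a lung cancer of a C57BL/6 mouse. Dual-colour arrays held RNA of untreated LLC1 cells in Cy3 and RNA of irradiated LLC1 cells in Cy5, taken 4 h after treatment, and the dyes were not exchanged on any array. Cells had received 2 Gy at once (3 arrays), 10 Gy at once (2 arrays; the other replicate that the labels count was not analysed here) or 5 fractions of 2 Gy, written 5x2 Gy (3 arrays). The labels describe the arrays as biological replicates, but do not say how the cultures were separated, so the p-values measure the spread between these arrays. A value is the log2 ratio of irradiated over untreated signal, so that 1 is a doubling, and a change was called where limma gave an adjusted p under 0.05 over all 13411 genes. Against untreated cells, the dye bias of a probe cannot be told apart from the treatment.

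The 2 Gy arrays and 10 Gy replicate 1 lay on slide 1, and 10 Gy replicate 2 and the 5x2 Gy arrays on slide 2. The 2 Gy and 5x2 Gy arrays thus share no slide, and the 10 Gy pair alone links the slides. The arrays detected 34.7% to 49.1% of probes per channel, and their number limits the precision. The cells had Krt8, Krt18, Krt19, Vim and Fn1 above background on all 8 untreated samples. Epcam, Cdh1, Nkx2-1, Pdgfrb, Ptprc, Adgre1, Itgam and Pecam1 were above background on none. Col1a1, like Vim, Fn1 and Pdgfrb a mesenchymal marker, was above background on 7 untreated samples, at a median of 1.04 times the detection level. The lung markers Sftpc, Sftpb and Scgb1a1 lay at medians of 0.934 to 1.02 times the detection level. Of the leukocyte markers, Cd68 and Cd3e were above background on all 8, at medians of 1.94 and 1.16 times the detection level.

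E2F factors bind DNA as dimers with a DP protein and control the genes of DNA replication and of the entry into S phase. E2f1, E2f2 and E2f3 are classed as activators, E2f4 as a repressor that works with pocket proteins, and E2f7 and E2f8 as repressors that need no DP partner. Rb1 (pRb) holds mainly the activators, while Rbl1 (p107) and Rbl2 (p130) join E2F4 and the MuvB proteins in the DREAM complex, which silences cell-cycle genes in resting cells and after p53 activation through p21, the product of Cdkn1a. Phosphorylation by cyclin-dependent kinases releases the pocket proteins. Several of these genes, E2f1, E2f2, E2f7, E2f8 and Rbl1 among them, are known E2F targets themselves.

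Because the family is known to regulate its own genes, the start regions of its members are shown first, in RefSeq coordinates of GRCm38.p6. Of the 10 genes, 8 had a promoter window in the reference, of 300 bases from 250 before to 50 after an annotated start, and 3 of them had 2 windows. Windows were searched on both strands for the E2F motifs TTTCCCGC, TTTCGCGC, TTTGCCGC and TTTGGCGC, for the CHR element TTTGAA, a site of the MuvB proteins in mitotic promoters, and for CCAAT, the box bound by NF-Y. Of all 32851 windows, 2.26% held an E2F motif, 17.9% a CHR and 37.4% a CCAAT. The 250 bases upstream of the start are printed for 4 of the members called in at least 1 regimen, with every match in capitals. E2f2 and Rbl2 were also called and had windows, which are not printed.
Rbl1, chr2:157204535-157204784, minus strand: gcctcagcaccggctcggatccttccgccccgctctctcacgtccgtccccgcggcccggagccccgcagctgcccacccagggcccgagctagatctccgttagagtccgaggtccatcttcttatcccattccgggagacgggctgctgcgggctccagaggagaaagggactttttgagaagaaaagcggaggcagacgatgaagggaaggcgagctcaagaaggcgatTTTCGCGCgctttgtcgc
E2f3, chr13:29986064-29986313, minus strand: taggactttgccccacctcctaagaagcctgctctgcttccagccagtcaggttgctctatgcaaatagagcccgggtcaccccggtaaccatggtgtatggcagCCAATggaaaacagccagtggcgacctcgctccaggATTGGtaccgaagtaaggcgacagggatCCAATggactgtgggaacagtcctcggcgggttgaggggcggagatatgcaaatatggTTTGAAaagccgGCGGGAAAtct
E2f7, chr10:110745189-110745438, plus strand: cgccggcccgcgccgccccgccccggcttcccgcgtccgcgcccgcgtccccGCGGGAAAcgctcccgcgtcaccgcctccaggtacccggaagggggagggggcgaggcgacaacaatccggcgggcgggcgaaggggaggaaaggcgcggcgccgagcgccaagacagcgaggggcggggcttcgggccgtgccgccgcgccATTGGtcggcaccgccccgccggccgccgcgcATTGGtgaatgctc
E2f8, chr7:48881597-48881846, minus strand: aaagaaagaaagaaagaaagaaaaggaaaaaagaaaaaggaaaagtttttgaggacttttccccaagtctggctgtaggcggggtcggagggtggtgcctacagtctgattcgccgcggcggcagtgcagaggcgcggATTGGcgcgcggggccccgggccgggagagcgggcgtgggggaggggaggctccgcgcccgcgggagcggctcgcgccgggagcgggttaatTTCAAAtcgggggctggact
Rbl1 held a single match, TTTCGCGC, beginning 18 bases before the start. At the E2f3 start shown, TTTCCCGC lay on the opposite strand 11 bases before the start, next to a CHR at 23 bases, with 3 CCAAT boxes further up. The other E2f3 window, not shown, held no match to any of these motifs. E2f7 held the same E2F motif 198 bases before its start and 2 CCAAT boxes. The E2f8 window had no E2F motif in these letters, but a CHR at 20 bases and 1 CCAAT box at 112 bases. E2F motifs were also found in a window of E2f2 and in both overlapping windows of Tfdp1, so 5 of the 8 genes with a window held at least 1. The windows of E2f1 and Rbl2 held none. Each of these genes had a single window, at an annotated start, so any other start of the gene was not searched. A match describes the letters in a window and is no evidence of binding.

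The pocket protein genes went in different directions. Rb1 was higher in irradiated cells on all 8 arrays and rose in every regimen, whereas Rbl1 fell after 10 Gy and after 5x2 Gy. Rbl2 rose after 5x2 Gy and was above 0 on 7 of 8 arrays. In bulk RNA of a culture, fewer cells in a phase of the cycle and less RNA per cell cannot be told apart.

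Rb1, the prototype of the pocket proteins, had log2 ratios of 0.44, 1.07 and 1.01 on the 2 Gy arrays. The 10 Gy arrays gave 1.13 and 1.22. The 5x2 Gy arrays gave 0.78, 0.75 and 0.63. The 10 Gy pair lay above every other array, and the values of 2 Gy and 5x2 Gy overlapped. The mean was 0.84 ± 0.12 (SE, n = 3; 1.79-fold; adjusted p = 0.0033) after 2 Gy. It was 1.18 ± 0.15 (SE, n = 2; 2.26-fold; adjusted p = 0.00084) after 10 Gy and 0.72 ± 0.12 (SE, n = 3; 1.65-fold; adjusted p = 0.0021) after 5x2 Gy. This probe was printed 10 times on each array, and the SD of the log2 ratio among its spots before normalization was 0.20 to 0.36 within an array. Its untreated signal was low, a median of 1.89 times the detection level, and the other Rb1 probe was not above background on any array, so a single probe carries the Rb1 result. With slide as a random block the adjusted p was 0.19 at 2 Gy and 0.14 at 5x2 Gy, and with array weights it was 0.093 at 10 Gy.

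Rbl1 encodes p107, the pocket protein whose own gene is E2F-driven in cycling cells. Its log2 ratios were -0.39, 0.02 and -0.01 on the 2 Gy arrays. They were -1.92 and -0.91 on the 10 Gy arrays and -0.64, -0.89 and -0.94 on the 5x2 Gy arrays. Every array of 10 Gy and 5x2 Gy lay below every array of 2 Gy. The mean was -1.42 ± 0.21 (SE, n = 2; 2.67-fold lower; adjusted p = 0.0015) after 10 Gy and -0.83 ± 0.17 (SE, n = 3; 1.77-fold lower; adjusted p = 0.0048) after 5x2 Gy. After 2 Gy it was -0.13 ± 0.17 (SE, n = 3; adjusted p = 0.64), with a 95% interval from -0.51 to 0.26. Both calls against untreated cells were kept in all 22 alternatives. After 10 Gy the mean was -0.91 with replicate 2 alone and -1.92 with replicate 1 alone.

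Rbl2 encodes p130, which is abundant in resting cells. Its log2 ratios were 0.04, 0.62 and 0.59 on the 2 Gy arrays, -0.48 and 0.73 on the 10 Gy arrays, and 0.50, 0.53 and 0.65 on the 5x2 Gy arrays. The lowest value of all was 10 Gy replicate 1 and the highest 10 Gy replicate 2. After 5x2 Gy the mean was 0.56 ± 0.20 (SE, n = 3; 1.48-fold; adjusted p = 0.047). After 2 Gy it was 0.42 ± 0.20 (SE, n = 3; adjusted p = 0.18) and after 10 Gy 0.12 ± 0.24 (SE, n = 2; adjusted p = 0.73). The second Rbl2 probe had the same sign on every array, from -0.59 on 10 Gy replicate 1 to 0.53 on 5x2 Gy replicate 2. It gave 0.37 ± 0.16 (SE, n = 3; adjusted p = 0.095) after 5x2 Gy. Its irradiated signal was above background on 5 of 8 arrays, 1 of them of 5x2 Gy, and its untreated median was 1.09 times the detection level. The irradiated signal of the tested probe was above background on 7 of 8 arrays. The 5x2 Gy call was lost when any 1 array of 2 Gy or 5x2 Gy was left out (adjusted p = 0.053 to 0.18), and the mean was -0.05 with slide as a block.

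**Figure D1:**
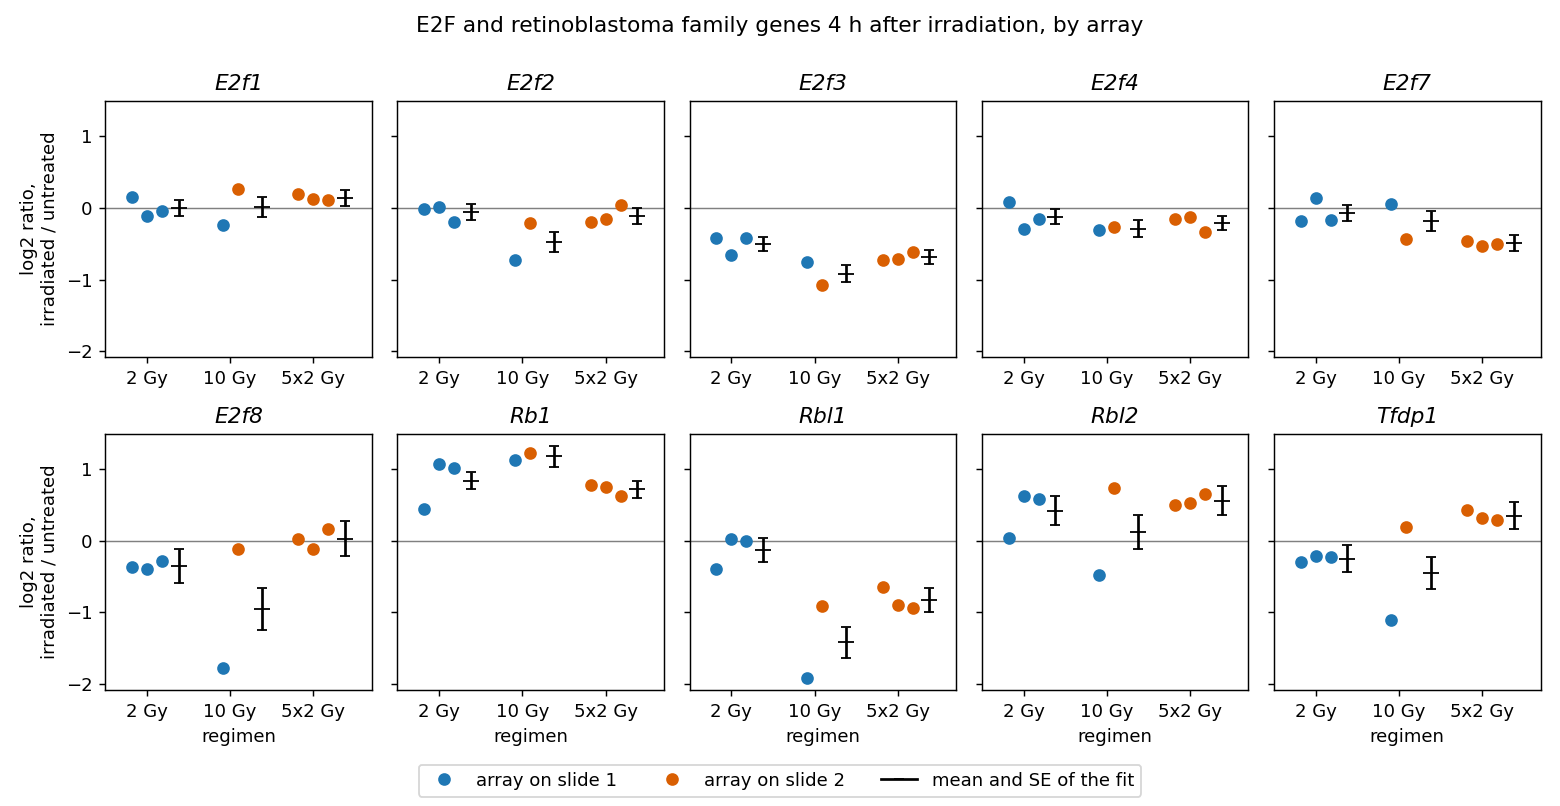
The log2 ratio of irradiated over untreated signal (vertical axis) for the 10 family genes, 1 point per array, by regimen (horizontal axis) and coloured by slide, with the mean and SE of the limma fit in black. Rb1 lies above 0 on all 8 arrays and E2f3 below 0 on all 8, Rbl1 is lower after 10 Gy and 5x2 Gy, and the 10 Gy arrays of E2f8, Tfdp1, Rbl2 and Rbl1 lie far apart.

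Among the activators, E2f3 was the one called in every regimen, and only by its brightest probe. E2f1 was not called in any regimen, and E2f2 fell after 10 Gy. The E2f3 log2 ratios were -0.42, -0.65 and -0.42 after 2 Gy. They were -0.76 and -1.07 after 10 Gy and -0.72, -0.71 and -0.62 after 5x2 Gy, so that both 10 Gy arrays lay below all others. The mean was -0.50 ± 0.097 (SE, n = 3; adjusted p = 0.0096) after 2 Gy. It was -0.92 ± 0.12 (SE, n = 2; 1.89-fold lower; adjusted p = 0.00086) after 10 Gy and -0.68 ± 0.097 (SE, n = 3; adjusted p = 0.00088) after 5x2 Gy.

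The other E2f3 probes above background did not show this fall. Probe A_52_P508167 had means of -0.25, 0.08 and -0.24 after 2 Gy, 10 Gy and 5x2 Gy (adjusted p = 0.28, 0.76 and 0.21). Probe A_51_P487718 had means of -0.04, 0.20 and 0.18 (adjusted p = 0.80, 0.25 and 0.15). All 3 carry the same RefSeq transcript accession on the array, and the probe that fell had the highest untreated signal relative to the detection level, 9.88 times against 2.16 and 1.32 times (medians). The mean over the 3 probes was -0.26, -0.21 and -0.25 in the 3 regimens and was not called in any. The 2 Gy call of the brightest probe was also lost without 2 Gy replicate 2 (-0.42, adjusted p = 0.093) or replicate 3 (-0.54, adjusted p = 0.065), with median centring in place of loess and with slide as a random block. The 10 Gy call had an adjusted p of 0.099 with array weights and 0.12 with the 10 Gy arrays alone.

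E2f1, the best known activator of S-phase genes, varied little. Its tested probe gave 0.15, -0.11 and -0.04 after 2 Gy, -0.24 and 0.27 after 10 Gy, and 0.20, 0.12 and 0.11 after 5x2 Gy. The regimens overlapped fully, and the 95% intervals of the means were -0.25 to 0.25 after 2 Gy, -0.29 to 0.32 after 10 Gy and -0.10 to 0.39 after 5x2 Gy. A second E2f1 probe, printed 10 times per array, lay slightly lower, with means of -0.26, -0.12 and -0.09 (adjusted p = 0.11, 0.51 and 0.51).

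E2f2 gave -0.01, 0.02 and -0.20 after 2 Gy, -0.73 and -0.21 after 10 Gy, and -0.20, -0.16 and 0.04 after 5x2 Gy. The low value was that of 10 Gy replicate 1. The 10 Gy mean was -0.47 ± 0.14 (SE, n = 2; 1.39-fold lower; adjusted p = 0.032). With 10 Gy replicate 2 alone it was -0.21 (adjusted p = 0.25), and the call was lost in 12 of 22 alternatives. These include leaving out any 1 array of 2 Gy or 5x2 Gy (adjusted p = 0.051 to 0.054).

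**Figure D2:**
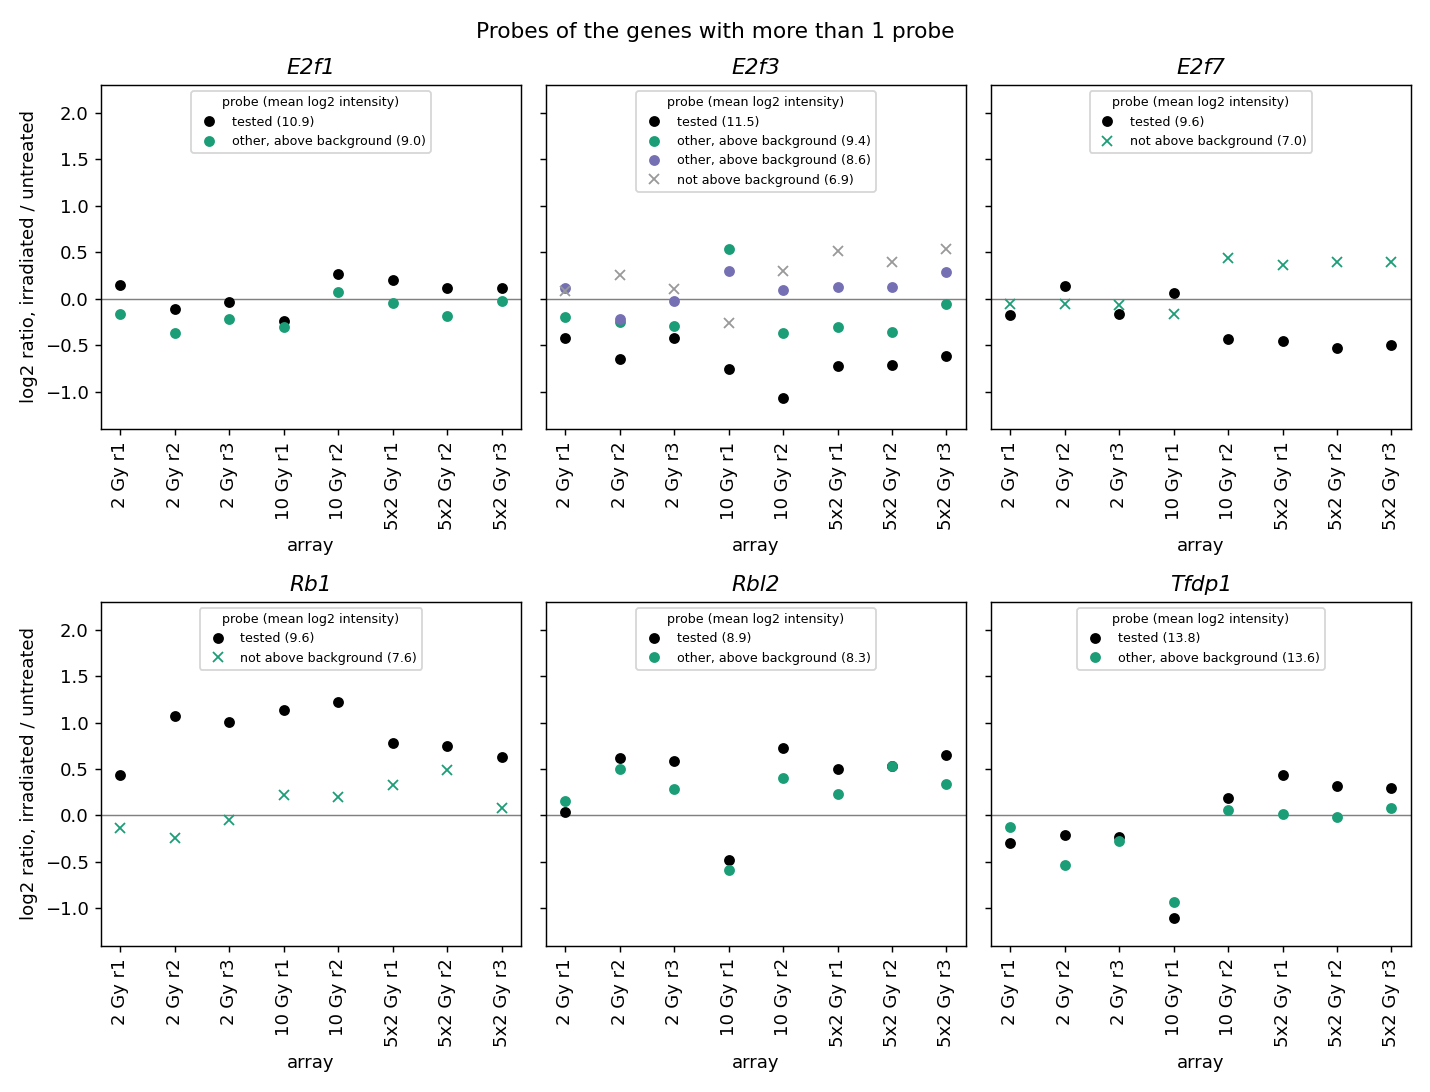
The log2 ratio of irradiated over untreated signal (vertical axis) on each of the 8 arrays (horizontal axis; r, replicate) for every probe of the 6 genes with several probes, with the mean log2 intensity of a probe in the legend. Circles are probes above background and crosses probes that are not. The black E2f3 probe lies below the other probes above background on all arrays, while the probe pairs of E2f1, Rbl2 and Tfdp1 move together.

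Of the repressor genes, E2f7 fell after 5x2 Gy and E2f8 after 10 Gy, and neither was called between any pair of regimens in the fit of all 8 arrays. E2f7 had -0.46, -0.53 and -0.50 on the 5x2 Gy arrays. The 2 Gy arrays gave -0.18, 0.14 and -0.17, and the 10 Gy arrays 0.06 and -0.43. All 5x2 Gy values lay below all others, although the value nearest to them, 10 Gy replicate 2, was from the same slide. The 5x2 Gy mean was -0.49 ± 0.11 (SE, n = 3; 1.41-fold lower; adjusted p = 0.0076), against -0.07 ± 0.11 (SE, n = 3; adjusted p = 0.69) after 2 Gy and -0.18 ± 0.14 (SE, n = 2; adjusted p = 0.35) after 10 Gy. The call was lost without 5x2 Gy replicate 2 (-0.48, adjusted p = 0.052), with slide as a block (-0.25, adjusted p = 0.16) and with slide as a random block (-0.32, adjusted p = 0.40). A second E2f7 probe was not above background on any array.

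E2f8 had -0.37, -0.39 and -0.28 after 2 Gy, -1.77 and -0.12 after 10 Gy, and 0.02, -0.11 and 0.17 after 5x2 Gy. The 10 Gy mean of -0.95 ± 0.29 (SE, n = 2; 1.93-fold lower; adjusted p = 0.036) came almost wholly from replicate 1. With replicate 2 alone it was -0.12 (adjusted p = 0.52), and with replicate 1 alone -1.77. Without any 1 array of 2 Gy or 5x2 Gy the adjusted p was 0.058 to 0.062. The 2 Gy arrays lay close together, at a mean of -0.35 ± 0.24 (SE, n = 3; adjusted p = 0.33). In a limma fit of the 2 Gy arrays alone that mean had an adjusted p of 0.010. With slide as a block the mean log2 ratio after 2 Gy was 0.48 (adjusted p = 0.013), opposite in sign.

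E2f4, the E2F of the DREAM complex, could hardly be measured. Its single probe was above background in the untreated channel on 3 arrays and in the irradiated channel on 1. After 10 Gy and 5x2 Gy the irradiated signal was not well above background on any array, and after 5x2 Gy the untreated signal was not either. Its log2 ratios, from -0.34 to 0.09 over the 8 arrays, are therefore those of signals near background, and no fold is given.

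Tfdp1, the DP partner that the activators and E2F4 need to bind DNA, was the brightest member, at a median of 36.3 times the detection level in untreated cells. It gave -0.30, -0.21 and -0.23 after 2 Gy, -1.10 and 0.19 after 10 Gy, and 0.43, 0.32 and 0.29 after 5x2 Gy. All 2 Gy arrays lay below 0 and all 5x2 Gy arrays above it, while the 10 Gy arrays lay on opposite sides. The sign depended on the processing: median centring in place of loess gave means of 0.23 after 2 Gy, 0.01 after 10 Gy and 0.47 after 5x2 Gy (adjusted p = 0.26, 0.97 and 0.025). Slide as a block gave 0.40 after 2 Gy and -0.30 after 5x2 Gy (adjusted p = 0.020 and 0.058). None of the means in the fit used throughout was called: -0.25 ± 0.19 (SE, n = 3; adjusted p = 0.39), -0.45 ± 0.23 (SE, n = 2; adjusted p = 0.17) and 0.35 ± 0.19 (SE, n = 3; adjusted p = 0.17). The second Tfdp1 probe had similar means after 2 Gy (-0.31) and 10 Gy (-0.43), but 0.03 after 5x2 Gy. In fits of 1 regimen alone, without the spread of the 10 Gy pair, the adjusted p was 0.034 after 2 Gy and 0.0041 after 5x2 Gy. For 3 arrays the spot of the tested probe carried a flag whose meaning is not given in the sources used here.

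Counted over the family, 2 of 10 genes were called after 2 Gy, Rb1 higher and E2f3 lower. Of all genes tested, 16.9% were called there, 8.99% higher and 7.93% lower. After 10 Gy 5 genes were called, Rb1 higher and E2f2, E2f3, E2f8 and Rbl1 lower. The share over all genes was 28.2%, with 12.4% higher and 15.8% lower. After 5x2 Gy it was again 5, Rb1 and Rbl2 higher and E2f3, E2f7 and Rbl1 lower, against 41% over all genes, 17.6% higher and 23.4% lower. The family's count thus lay near the share of all genes after 2 Gy and 5x2 Gy and above it after 10 Gy. Without any 1 array of 2 Gy or 5x2 Gy the 10 Gy count was 3, with 21.7% to 24.2% of all genes called. The median over the family was -0.10, -0.37 and -0.04 in the 3 regimens, beside 0.00, -0.06 and -0.02 over all genes. With median centring in place of loess the median of all genes after 2 Gy moved to 0.13, and 82.3% of the called genes were then higher there, against 53.1%. After 10 Gy that share was 58.6% against 44%. The 3 comparisons share a dye orientation, so their overlap is not independent evidence.

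Between the regimens, Rbl1 was the only member called. The log2 ratio after 10 Gy minus that after 2 Gy was -1.29 ± 0.27 (SE, 2 against 3 arrays; 2.45-fold lower; adjusted p = 0.043), where 2.56% of all genes were called. Within slide 1 the difference of 10 Gy replicate 1 to the 2 Gy mean was -1.80. With 1 array left in the 10 Gy group the difference was -0.79 for replicate 2, which lay on the other slide, and -1.80 for replicate 1. Without any 1 array of 2 Gy or 5x2 Gy the difference was -1.42 to -1.22 and was no longer called (adjusted p = 0.079 to 0.17).

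Between 5x2 Gy and 2 Gy limma called none of the 10 genes, with 1.3% of all genes called. By unadjusted p under 0.05 in limma there were 2, where 25.6% of all genes had such a p. These were E2f7 (-0.42 ± 0.16, SE) and Rbl1 (-0.70 ± 0.24, SE), each lower after 5x2 Gy. Their values did not overlap between the regimens, and neither did those of E2f8 and Tfdp1, which lay higher after 5x2 Gy. Such gaps were not counted over all genes, and the 2 regimens share no slide. A fit of these 6 arrays alone, without the spread of the 10 Gy pair, called 4 members and 29.9% of all genes. E2f7 (-0.42, adjusted p = 0.020) and Rbl1 (-0.70, adjusted p = 0.0056) were lower after 5x2 Gy, and E2f8 (0.38, adjusted p = 0.027) and Tfdp1 (0.59, adjusted p = 0.0035) higher. Each regimen lay on its own slide here, and the 10 Gy pair alone links the slides. With slide as a block in the fit of all 8 arrays, E2f8 was -1.28 (adjusted p = 0.0033) and Tfdp1 -0.69 (adjusted p = 0.035), opposite in sign to the values above. E2f7 was then 0.07 (adjusted p = 0.86), Rbl1 -1.71 (adjusted p = 0.0023) and Rbl2 -1.07 (adjusted p = 0.032).

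For the same total dose, 5x2 Gy against a single 10 Gy, limma called none of the 10 genes and 0% of all genes. Of the 13411 genes, 2241 had an unadjusted p under 0.05, and 3 members did. E2f8 was 0.97 ± 0.37 and Tfdp1 0.80 ± 0.30 (SE) higher after the fractions, and Rb1 was lower, at -0.46 ± 0.20 (SE). The 95% intervals were 0.14 to 1.81, 0.13 to 1.47 and -0.90 to -0.02. Within slide 2 the differences to 10 Gy replicate 2 were 0.15, 0.16 and -0.50. With 10 Gy replicate 1 alone in the 10 Gy group, the difference was 1.80 for E2f8 and 1.44 for Tfdp1. For E2f3 the interval of the difference was -0.11 to 0.58 and for Rbl1 -0.02 to 1.20.

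The 10 Gy pair held much of the spread of the family. Between its arrays, 6 of 10 members differed by more than 0.5, against 40.6% of all genes, and 4 by more than 1, against 11.2% of all genes. The gaps over 1, replicate 2 minus replicate 1, were 1.66 for E2f8, 1.28 for Tfdp1, 1.21 for Rbl2 and 1.01 for Rbl1. Rb1 (0.09) and E2f4 (0.04) had the smallest. On slide 1, replicate 1 lay below the 2 Gy mean by differences of -1.80 for Rbl1, -1.43 for E2f8, -0.90 for Rbl2 and -0.85 for Tfdp1. On slide 2 the 5x2 Gy mean differed from replicate 2 by only 0.09, 0.15, -0.17 and 0.16 for the same genes. The part of slide, dose and sample in this gap was not tested, since each slide holds 1 array of 10 Gy.

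**Figure D3:**
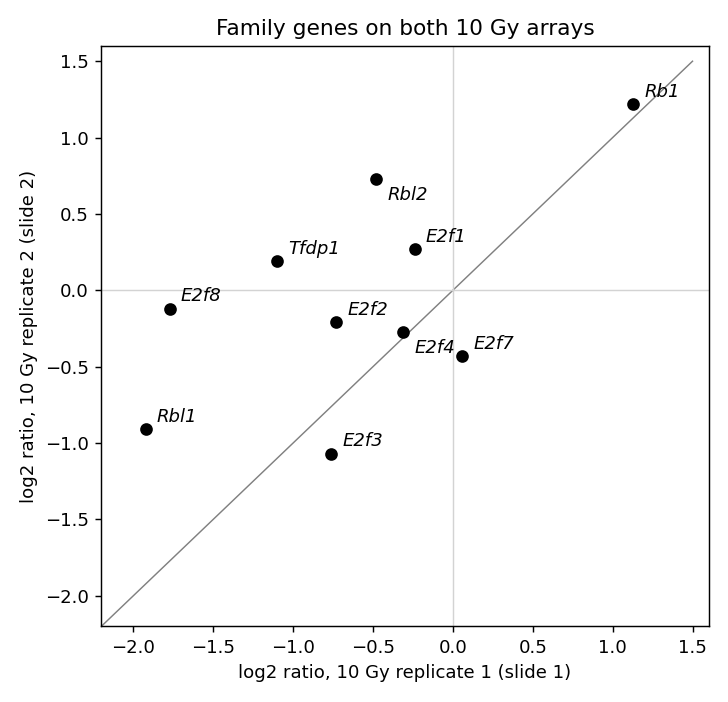
The log2 ratio of irradiated over untreated signal for the 10 family genes on 10 Gy replicate 1 (horizontal axis, slide 1) and replicate 2 (vertical axis, slide 2), 1 point per gene, with the line of equal values. Rb1 and E2f4 lie next to the line, and E2f8, Tfdp1, Rbl2 and Rbl1 lie more than 1 above it.

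Over the 8 arrays the closest pair of members was E2f8 and Tfdp1 (Pearson r = 0.94, Spearman 0.86). Without 10 Gy replicate 1 it was 0.87. E2f8 and Rbl2 had r = 0.88, but 0.42 without that array, and E2f2 and E2f8 had 0.84 and -0.08. These points share arrays and slides, and the values are descriptions. For the 4 members that span at least 1 on the log2 scale, the genes of the table with the most similar log2 ratios were Fut8 (r = 0.997), Btaf1 (0.991) and Prkd3 (0.991) for E2f8, and Sc5d (0.992), Rad51c (0.986) and Bbx (0.986) for Rbl1. For Rbl2 they were Sdha (0.991), Zfp281 (0.989) and Snx27 (0.985), and for Tfdp1 Ttll12 (0.995), Cdca7l (0.994) and Ints11 (0.990). Without 10 Gy replicate 1 these 12 correlations were 0.929 to 0.988.

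The other genes of the E2F and DP families were read alongside. E2f6, a repressor that works without pocket proteins, fell in all regimens, by means of -0.64 ± 0.084, -1.0 ± 0.10 and -0.78 ± 0.084 (SE; adjusted p = 0.0024, 0.00042 and 0.00028). E2f5, a relative of E2f4, had a mean of -0.34 after 2 Gy (adjusted p = 0.085) and fell after 10 Gy (-0.76 ± 0.15, SE, adjusted p = 0.0058) and 5x2 Gy (-0.88 ± 0.12, SE, adjusted p = 0.00082). Its values were -1.0 and -0.52 on the 10 Gy arrays and -0.72, -1.07 and -0.87 on the 5x2 Gy arrays. Tfdp2, the second DP gene, rose after 5x2 Gy (0.33 ± 0.10, SE, adjusted p = 0.028).

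Among 45 G1/S genes known as E2F targets, none rose and 14 fell after 2 Gy, 28 after 10 Gy and 20 after 5x2 Gy, with medians of -0.37, -0.61 and -0.36. Of all genes, 7.93%, 15.8% and 23.4% were called lower in these regimens. Ung, which removes uracil from DNA, was the most reduced after 2 Gy (-1.01 ± 0.13, SE, adjusted p = 0.0023) and 5x2 Gy (-1.4 ± 0.13, SE, adjusted p = 0.00019). Ccna2, cyclin A2, fell by a mean of -2.38 ± 0.29 (SE, adjusted p = 0.00067) after 10 Gy, with -3.08 and -1.69 on the arrays. Tyms, thymidylate synthase, had a mean of -0.99 ± 0.10 (SE, adjusted p = 0.00022) after 5x2 Gy. The 2 Gy count depended on processing: median centring gave 3 lower and 3 higher with a median of -0.03 (26.9% of all genes called). Leaving out 2 Gy replicate 1, 2 or 3 gave 5, 2 and 2 lower (7.02%, 3.61% and 3.04% of all genes called). Leaving out 5x2 Gy replicate 3 gave 7 (10.8%). On the 10 Gy arrays the median of the list was -0.88 for replicate 1 and -0.26 for replicate 2. After 5x2 Gy the count was 10 and 11 without 5x2 Gy replicate 2 or 3 (23.1% and 22.4%). With all 8 arrays, 16.9% of all genes were called in either direction after 2 Gy and 41% after 5x2 Gy.

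Of 34 G1/S genes with a promoter window, 17 held an E2F motif (50%), against 2.6% of all genes with a window. Of 20 genes of the G2/M list with a window, 14 held a CHR (70%) and 19 a CCAAT box (95%), against 20.2% and 41.1% of all genes. These lists were drawn up as known targets, so the shares describe the lists.

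Next came 25 G2/M genes bound by DREAM and MuvB. After 2 Gy 1 was called, Aurkb (Aurora B), higher at 0.57 ± 0.17 (SE, adjusted p = 0.045). After 10 Gy 22 fell, with a median of -1.35, where 15.8% of all genes were called lower. After 5x2 Gy 5 fell, with a median of -0.13, a share below the 23.4% of all genes. Between regimens, 10 were called lower after 10 Gy than after 2 Gy, 1 lower after 5x2 Gy than after 2 Gy and none for 5x2 Gy against 10 Gy, where limma called 0% of all genes. Ccnb1, cyclin B1, had a mean of -2.27 ± 0.42 (SE, adjusted p = 0.0042) after 10 Gy, from -3.49 on replicate 1 and -1.05 on replicate 2. Bub1, a spindle checkpoint kinase (-1.19 ± 0.20, SE, adjusted p = 0.0018), and Top2a, topoisomerase II alpha (-1.09 ± 0.15, SE, adjusted p = 0.00071), fell most after 5x2 Gy. The median of the list was -2.02 on 10 Gy replicate 1 and -0.57 on replicate 2. Without any 1 5x2 Gy array 3 genes fell after 5x2 Gy, where 22.4% to 24% of all genes were called in either direction. The single 2 Gy call was lost without any 1 array of 2 Gy or 5x2 Gy, where 3.04% to 12.5% of all genes were called.

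**Figure D4:**
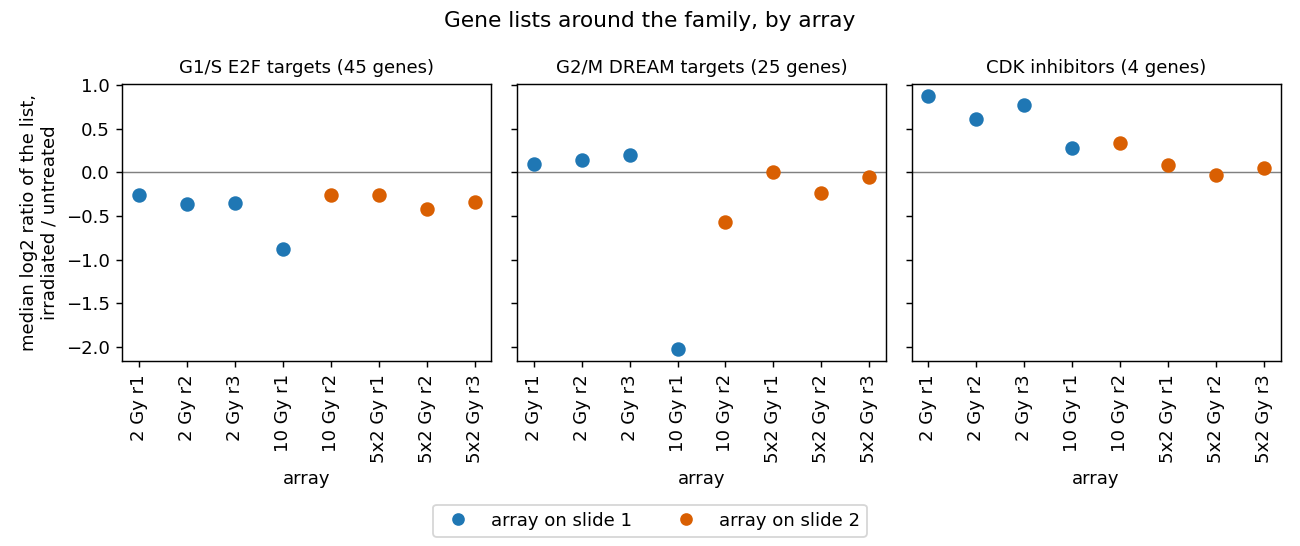
The median log2 ratio of irradiated over untreated signal (vertical axis) on each array (horizontal axis; r, replicate) for 45 G1/S E2F targets, 25 G2/M DREAM targets and 4 CDK inhibitors, coloured by slide. The G1/S medians lie below 0 on all 8 arrays, from -0.88 to -0.26, and the G2/M median reaches -2.02 on 10 Gy replicate 1.

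The proteins that set the state of the pocket proteins were mixed. Of 7 CDK inhibitor genes 4 were measured. Cdkn1a, which encodes p21, had 1.21, 0.55 and 0.89 after 2 Gy (mean 0.88 ± 0.32, SE, adjusted p = 0.088), 3.73 and 1.47 after 10 Gy (2.6 ± 0.39, SE, adjusted p = 0.0017) and 1.35, 1.15 and 1.30 after 5x2 Gy (1.27 ± 0.32, SE, adjusted p = 0.012). Cdkn2d (p19) and Cdkn2c (p18), inhibitors of the cyclin D kinases, rose after 2 Gy by means of 1.13 ± 0.11 and 0.65 ± 0.094 (SE, adjusted p = 0.00095 and 0.0031). Cdkn2d also rose after 10 Gy (0.46 ± 0.14, SE, adjusted p = 0.031). Cdkn1b (p27) fell after 10 Gy (-0.81 ± 0.21, SE, adjusted p = 0.020) from -1.37 on replicate 1 and -0.25 on replicate 2. Of 7 G1 cyclin and CDK genes 1 was called after 2 Gy, 1 after 10 Gy and 3 after 5x2 Gy. The shares over all genes were 16.9%, 28.2% and 41%, and these counts are not read as a change of the group. Skp2, the ubiquitin ligase subunit that targets p27, fell in all regimens (-0.56, -0.81 and -0.62, adjusted p = 0.0074, 0.0017 and 0.0017). Ccnd2 and Ccnd3, D-type cyclins, rose after 5x2 Gy (both 0.36, adjusted p = 0.033 and 0.024).

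Of the 6 genes of the MuvB core and its kinase, 2 were called in each regimen, where 16.9%, 28.2% and 41% of all genes were called. Counts this small are not read as a change of the group. Lin37 rose after 2 Gy (0.65 ± 0.11, SE, adjusted p = 0.0055) and 5x2 Gy (0.33 ± 0.11, SE, adjusted p = 0.037). Dyrk1a, the kinase that starts DREAM assembly, fell after 2 Gy (-0.35 ± 0.096, SE, adjusted p = 0.033). Lin9 fell after 10 Gy (-0.62 ± 0.13, SE, adjusted p = 0.0070) and 5x2 Gy (-0.59 ± 0.10, SE, adjusted p = 0.0023), and Lin54 after 10 Gy (-0.87 ± 0.25, SE, adjusted p = 0.032). Of 9 corepressors of pocket proteins, 1 rose after 2 Gy, 2 rose and 2 fell after 10 Gy, and 1 rose and 1 fell after 5x2 Gy. Sin3b, a scaffold of histone deacetylase complexes, rose after 10 Gy (0.69 ± 0.12, SE, adjusted p = 0.0039) and 5x2 Gy (0.33 ± 0.10, SE, adjusted p = 0.026). Rbbp8 (CtIP), which also acts in DNA end resection, fell after both (-0.78 ± 0.16 and -0.81 ± 0.13, SE, adjusted p = 0.0066 and 0.0015). Arid4a, an Rb-binding protein, rose after 2 Gy (0.52 ± 0.093, SE, adjusted p = 0.0071) and 10 Gy (0.45 ± 0.11, SE, adjusted p = 0.018).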

How the data were processed

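Each deposited scanner file gives the mean pixel intensity of every spot in both channels (ImaGene 9.0, no background correction or normalization, per the file headers). The authors' value table, also deposited, is on a log2 scale, Cy5 over Cy3 (r of 0.998 to 1.000 with loess ratios of the same arrays) and served as an alternative. Foreground signals went through normexp (offset 50) and loess within each of the 8 arrays, without scaling between arrays. Repeated spots were averaged. Probes had to exceed the median of 153 negative controls plus 2.6 robust SD in 1 channel on at least 2 arrays (21685 of 41174 probes). Symbols were updated through RefSeq accessions (27191 probes matched). For each symbol the probe of highest mean intensity was tested.

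In limma 3.58.1 (R 4.3.3), 1 mean per regimen was fitted over all 8 arrays, with eBayes and Benjamini-Hochberg adjustment over 13411 genes. The script was tested on simulated data. All members were named. From each gene list up to 4 called genes per regimen with the largest mean and 1 sign on its arrays were eligible, and Cdkn1a always was; the text gives part of these. Members and lists were chosen with earlier results of these data known. The alternatives are described in the closing section. Protein sequences were not used here.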

Additional observations from a re-analysis of the deposited data

Results flagged for a closer look

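Tfdp1 was the member with values on opposite sides of 0 in a pair of regimens: its mean log2 ratio was -0.25 after 2 Gy, where all 3 arrays were below 0, and 0.35 after 5x2 Gy, where all 3 were above 0. The difference, 0.59 ± 0.27 (SE), had an adjusted p of 0.20 in limma over all 8 arrays and of 0.0035 over the 6 arrays of these regimens alone. With slide as a block it was -0.69. With median centring in place of loess both means were above 0, at 0.23 after 2 Gy and 0.47 after 5x2 Gy. The regimens lay on different slides, and the second Tfdp1 probe had 0.03 after 5x2 Gy.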

How the results depend on the processing

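The number of members called was recomputed under 22 alternatives: no background correction, median centring, scaling between arrays, the authors' value table, no filter or a stricter filter on dim probes, flagged spots left out, the mean of probes or each probe alone, slide as a block or random block, the replicate block, array weights, only the arrays compared, and leaving out each array. The share of all genes called in the same setting is given in brackets. After 2 Gy the count of 2 became 1 with median centring (26.9%) and with the mean of probes (17.9%), and 0 with slide as a random block (0.157%). It became 5 with slide as a block (33.3%), with array weights (54.3%) and with the compared arrays alone (35.9%). After 10 Gy the count of 5 became 3 with scaling (20.4%) and with slide as a random block (10.9%). It became 1 with array weights (1.66%), 2 with its own arrays alone (2.24%) and 7 with slide as a block (48.6%). After 5x2 Gy the count of 5 became 3 with the mean of probes (40.5%) and 1 with slide as a random block (6.09%). It became 7 with array weights (66.8%) and with its own arrays alone (59.9%). For 10 Gy against 2 Gy the count of 1 became 0 with scaling (0.201%), with array weights (0.0149%) and with the compared arrays alone (0%). It became 5 with slide as a block (32.1%) and 4 as a random block (21.7%). For 5x2 Gy against 2 Gy the count of 0 became 4 with slide as a block (17.7%), with array weights (44.9%) and with the compared arrays alone (29.9%). It became 1 with the random block (1.76%). Leaving out single arrays gave 1 to 5 members after 2 Gy, 3 to 6 after 10 Gy, 3 to 6 after 5x2 Gy, 0 to 5 for 10 Gy against 2 Gy, 0 to 4 for 5x2 Gy against 2 Gy and 0 to 6 for 5x2 Gy against 10 Gy. Except where the alternative uses fewer arrays, the cause was not tested.

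Slide as a block, where only the 10 Gy pair informs the slide term, changed the sign of 18 of 60 values, and 7 of these were called in either fit. E2f8 became 0.48 after 2 Gy, -0.80 after 5x2 Gy and -1.28 for 5x2 Gy against 2 Gy. Tfdp1 became 0.40 after 2 Gy and -0.69 for 5x2 Gy against 2 Gy. Rbl2 became -0.05 after 5x2 Gy and -1.07 for 5x2 Gy against 2 Gy. Of 1314 member values over all alternatives, 1123 kept sign and side of the threshold, 60 lost a call, 62 gained one and 69 changed sign, 7 of these with a call.

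Whether replicate numbers pair the arrays could not be decided. Deviations from the regimen means correlated at -0.24 to 0.11 for the same number (7 pairs) and -0.11 to 0.24 for different numbers (14 pairs). The deviations of the 10 Gy pair mirror each other by construction, so these ranges do as well. With the replicate block 3 members were called after 10 Gy, 0 for 10 Gy against 2 Gy, 2 after 2 Gy and 5 after 5x2 Gy.

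Over all genes, the counts called moved from 2270 to between 21 and 7281 after 2 Gy, from 3785 to between 222 and 6524 after 10 Gy, from 5492 to between 817 and 9076 after 5x2 Gy, from 343 to between 0 and 4302 for 10 Gy against 2 Gy, from 175 to between 0 and 6016 for 5x2 Gy against 2 Gy, and from 0 to between 0 and 5788 for 5x2 Gy against 10 Gy. Signal over background limits E2f4, Rbl2 and Rb1, whose untreated medians were 0.97, 1.44 and 1.89 times the detection level.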
